A study of Homo sapiens with 5 samples.

Results

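The genes described here are 34 genes of glycolysis and of the response to low oxygen, chosen by gene symbol from a list. It holds 4 transporters, 17 glycolytic enzymes, 4 regulators of glycolytic flux, the transcription factor HIF1A and 8 hypoxia-responsive genes outside glycolysis. Of these, 31 had a probe named in the platform annotation, of 20041 genes named on the array. SLC16A1, SLC16A3 and CA9 had none and were not analysed here. Detected signal was found for 30 of the 31 on at least 1 array and for 27 on all 5 arrays, and EGLN3, a prolyl hydroxylase of the oxygen-sensing pathway, was detected on no array.

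The human embryonic stem cell line H1, an established line, was grown on matrigel and turned towards mesoderm with CHIR99021, which inhibits GSK3 and so turns on canonical WNT signaling. All 5 groups received CHIR99021 and were harvested on day 10. From day 2 to day 5 the groups received IWP2 (an inhibitor of Porcupine, which blocks WNT secretion), LY294002 (an inhibitor of phosphoinositide 3-kinase, PI3K), insulin, or IWP2 together with LY294002, and the control group stayed in basal differentiation medium. Each group is 1 expression BeadChip array, so no difference could be set against the spread between replicates and no p-value is given. The comparisons with the control share its 1 array.

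Glycolysis splits glucose into pyruvate in the cytosol, and lactate dehydrogenase turns pyruvate into lactate when it is not burned in mitochondria. When oxygen is low, prolyl hydroxylases stop marking the alpha subunits of hypoxia-inducible factor (HIF) for destruction, and HIF then raises transcription of glucose transporters, most glycolytic enzymes and genes such as VEGFA and ADM. PI3K signaling is known to raise glucose uptake and glycolysis in many cell types, and cardiomyocytes are known for moving from glycolysis to oxidative metabolism as they mature.

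Values are background-corrected, quantile-normalized log2 intensities, on which a difference of 1 is 2-fold. Each gene was read by its brightest probe, and detection means a detection p-value under 0.01. Levels of different genes are not compared, because probes differ in brightness. The arrays detected from 13173 probes (LY294002, the dimmest) to 14723 (IWP2). As a yardstick of reliability, 1331 genes had at least 2 probes detected on all arrays. Between the 2 brightest probes of such a gene, the log2 difference from control departed with a standard deviation of 0.64 for IWP2, 0.67 for LY294002, 0.57 for insulin and 0.64 for the double inhibitor. That spread is between probes, which may read different transcripts, and not between cultures.

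The cell type content of the arrays differed, by markers listed separately. The summed normalized intensity of 12 endoderm and liver genes was 28000 with IWP2, 6480 with LY294002, 105000 with insulin and 1940 with IWP2 and LY294002, against 92500 in the control. For 12 cardiomyocyte genes it was 54900, 43900, 6760 and 51300 in the same order, against 13100 in the control, and for 6 fibroblast genes 7100, 6340, 26900 and 984, against 27300 in the control. Among liver markers, ALB was not detected with LY294002 or with both inhibitors, and TF on none of the 3 inhibitor arrays. AHSG and RBP4 were not detected with both inhibitors, nor were the fibroblast genes LUM, DCN and PDGFRB. TNNI1 was detected on no array, RYR2, TNNI3 and TTN were not detected with insulin or in the control (TTN also not with LY294002), and MYH7, ACTN2 and NKX2-5 were not detected with insulin. The sum over 10 proliferation genes was 2390, 2900, 2870 and 1310, against 2980 in the control, and over 5 epithelial genes 2690, 1090, 6160 and 862, against 5000. Of 5 endothelial genes, PECAM1 and CDH5 were detected with insulin and in the control alone, TEK and KDR on all 5 arrays and TIE1 on none. The endothelial sum was 379, 310, 861 and 306, against 579, although KDR was higher than the control with IWP2 (1.19) and with both inhibitors (1.08). Of 6 pluripotency genes, POU5F1 and NANOG were detected on none of the 5 arrays and SOX2 with both inhibitors alone, while LIN28A was detected on all 5 and DPPA4 and ZFP42 on all but the double inhibitor array. Of 4 erythroid genes with a probe, 3 were detected with insulin, 1 with IWP2 and 0 in the control. The erythroid sum was 397 with insulin, against 94.8 in the control. The endoderm and liver, cardiomyocyte, fibroblast and epithelial signals move with the 3 inhibitor arrays, as do many of the differences below. The cardiomyocyte sum was also lower with insulin, and the proliferation sum was lowest with both inhibitors. The part of cell type content in the differences below was not tested. In such bulk samples, fewer cells of a type and less RNA per cell cannot be told apart.

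Both facilitative glucose transporters were at least 2-fold lower with the 2 inhibitors together, 1 of the 2 with LY294002 and neither with IWP2. Over all genes detected on both arrays, 10.9%, 10.2% and 7.7% were lower in that order. SLC2A1 (GLUT1, the transporter for basal glucose uptake) read 9.17 with IWP2, 9.18 with LY294002, 10.16 with insulin and 6.84 with both inhibitors, against 9.85 in the control. Each inhibitor alone left it 0.68 and 0.67 below the control on the log2 scale, close to the between-probe spread, while the double inhibitor array lay 8.08-fold below (a log2 difference of -3.01, and -2.29 without background correction). SLC2A3 (GLUT3, a high-affinity transporter of neurons and early embryos) read 12.39 with IWP2, 10.95 with LY294002, 12.78 with insulin and 10.71 with both inhibitors, against 12.63 in the control. The arrays split by LY294002: SLC2A3 was 3.19-fold lower with LY294002 and 3.77-fold lower with both, and within 1.18-fold of the control with IWP2. Both transporters were highest with insulin, by a log2 difference of 0.31 and 0.16, well inside the between-probe spread. The plot of levels by array shows these 2 genes and 10 further members.

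**Figure D1:**
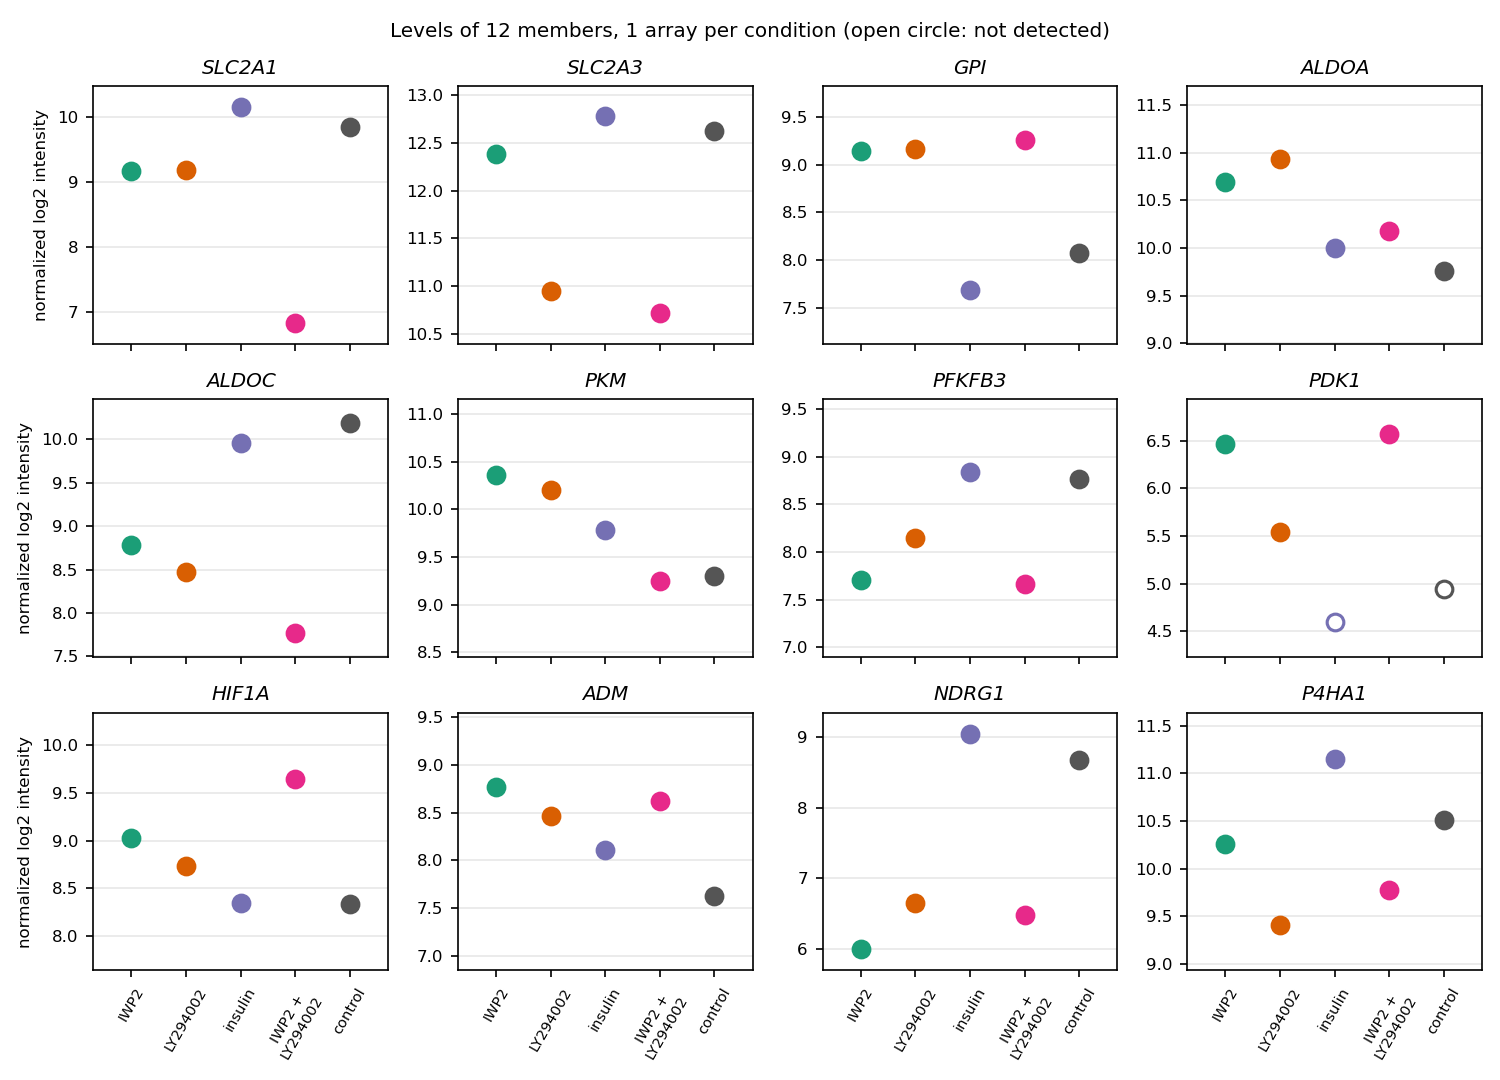
Normalized log2 intensity (vertical axis, own range per gene) of 12 members on the IWP2, LY294002, insulin, IWP2 with LY294002 and control arrays, 1 point per array, with open circles where the probe was not detected. SLC2A1 stands lowest with both inhibitors (6.84), NDRG1 is low on the 3 inhibitor arrays (6.0 to 6.66), and the control reads 9.85 for SLC2A1 and 8.68 for NDRG1.

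Most glycolytic enzymes stayed within 2-fold of the control, and those that did not went in opposite directions. With IWP2, 2 of 17 enzymes were at least 2-fold higher (GPI and PKM) and 1 was lower (ALDOC), against a background of 6.94% higher and 7.7% lower over all genes detected on both arrays. With LY294002, 2 of 16 were higher (GPI and ALDOA) and 1 lower (ALDOC), against 9.02% and 10.2% of all genes. With both inhibitors, 1 of 16 was higher (GPI) and 1 lower (ALDOC), against 12% and 10.9%. With insulin, 0 of 16 enzymes passed 2-fold in either direction, against 1.71% higher and 1.88% lower. With counts this small, the enzymes lay near the background.

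On the inhibitor arrays the upper steps of the pathway, from glucose to triose phosphates, held the enzyme farthest from the control, ALDOC. GPI, which turns glucose 6-phosphate into fructose 6-phosphate, read 9.14 with IWP2, 9.16 with LY294002, 7.69 with insulin and 9.26 with both inhibitors, against 8.08 in the control. The 3 inhibitor arrays lay together, between 2.09-fold and 2.27-fold above the control, and the insulin array lay below it by a log2 difference of -0.39. The aldolases split by isoform. ALDOA, the aldolase of muscle and most tissues, read 10.69 with IWP2, 10.94 with LY294002, 10.00 with insulin and 10.18 with both inhibitors, against 9.76 in the control. ALDOC, the brain-type aldolase, read 8.78 with IWP2, 8.47 with LY294002, 9.96 with insulin and 7.76 with both inhibitors, against 10.19 in the control. ALDOC was thus 2.65-fold lower with IWP2, 3.29-fold lower with LY294002 and 5.37-fold lower with both, while ALDOA was 1.90-fold, 2.26-fold and 1.34-fold higher on the same arrays.

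Hexokinases, which trap glucose as glucose 6-phosphate, stayed within 2-fold. HK1, the hexokinase of most tissues, read 11.40 with IWP2, 10.47 with LY294002, 10.47 with insulin and 10.99 with both inhibitors, against 10.59 in the control. HK2, the insulin-responsive form of muscle and fat, read 6.29, 6.61, 6.95 and 7.01 in that order, against 6.97 in the control. The IWP2 array was the one that set them apart, with HK1 at 0.81 and HK2 at -0.68 relative to the control. Phosphofructokinase, the main control point of the pathway, has 3 subunit genes here. PFKL, the liver type, read 5.95 with IWP2, 6.28 with LY294002 and 7.36 with insulin, against 6.86 in the control, and with both inhibitors its probe was not detected, which makes it at least 2.64-fold lower there. PFKM, the muscle type, differed from the control by 0.37 with IWP2, 0.13 with LY294002, -0.58 with insulin and 0.06 with both inhibitors. PFKP, the platelet type, differed by 0.85, 0.46, 0.49 and -0.11 in the same order. PFKL therefore lay below the control on all 3 inhibitor arrays, PFKM above it by less than the between-probe spread, and PFKP above it with each inhibitor alone. With LY294002 the differences of PFKL (-0.58) and PFKP (0.46) were also inside that spread (0.67).

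The lower steps, from triose phosphates to lactate, stayed within 2-fold of the control by their brightest probes where these were detected, apart from PKM with IWP2. TPI1 (triose phosphate isomerase), GAPDH and PGK1 (phosphoglycerate kinase) differed from the control by -0.22 to 0.23 on all 4 treated arrays. PGAM1, a phosphoglycerate mutase, differed by 0.34, 0.02, 0.78 and 0.27 with IWP2, LY294002, insulin and both inhibitors. ENO1, the enolase of most tissues, differed by 0.44, -0.21, 0.55 and -0.44 in that order. ENO2, the neuronal enolase, read 5.98 with IWP2 and 5.65 with both inhibitors, against 6.04 in the control, and was not detected with LY294002 or insulin, which bounds it to at least 1.47-fold and 1.64-fold lower there. Its 3 detected values lay within 1 log2 unit of the dimmest detected probe of their arrays (5.27 to 5.46).

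Pyruvate kinase and the lactate dehydrogenases end the pathway. PKM, the pyruvate kinase gene of most tissues outside liver and red cells, read 10.36 with IWP2, 10.20 with LY294002, 9.79 with insulin and 9.24 with both inhibitors, against 9.30 in the control. It was high with each inhibitor alone, 2.08-fold and 1.86-fold above the control, and level with the control when both were given. LDHA, the subunit of muscle that favours lactate formation, read 12.21 with IWP2, 11.61 with LY294002, 11.95 with insulin and 11.69 with both inhibitors, against 11.50 in the control. LDHB, the subunit of heart, read 12.55, 12.42, 11.63 and 12.38 in that order, against 11.77 in the control. LDHB stood 0.61 to 0.78 above the control on the 3 inhibitor arrays, about the size of the between-probe spread, and LDHA came as near to that only with IWP2 (0.71).

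The regulators of flux lay on both sides of the control. PFKFB3, whose product makes fructose 2,6-bisphosphate and so drives phosphofructokinase, read 7.71 with IWP2, 8.15 with LY294002, 8.84 with insulin and 7.66 with both inhibitors, against 8.76 in the control. It was 2.08-fold lower with IWP2 and 2.15-fold lower with both inhibitors. Its relative PFKFB4 differed from the control by -0.44, -0.12, 0.93 and -0.10 with IWP2, LY294002, insulin and both inhibitors. PDK1, a kinase that shuts off pyruvate dehydrogenase and so keeps pyruvate out of mitochondria, read 6.47 with IWP2, 5.54 with LY294002 and 6.56 with both inhibitors. It was not detected with insulin or in the control, where its probe read 4.60 and 4.95. PDK1 was thus at least 2.22-fold higher with IWP2 and at least 2.37-fold higher with both inhibitors, and at least 1.17-fold higher with LY294002. Without background correction PDK1 differed by 0.56 with IWP2 and 0.61 with both inhibitors, which is under 2-fold. PDK3, a second kinase of that complex, differed by 0.61, -0.05, -0.28 and 0.25.

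**Figure D2:**
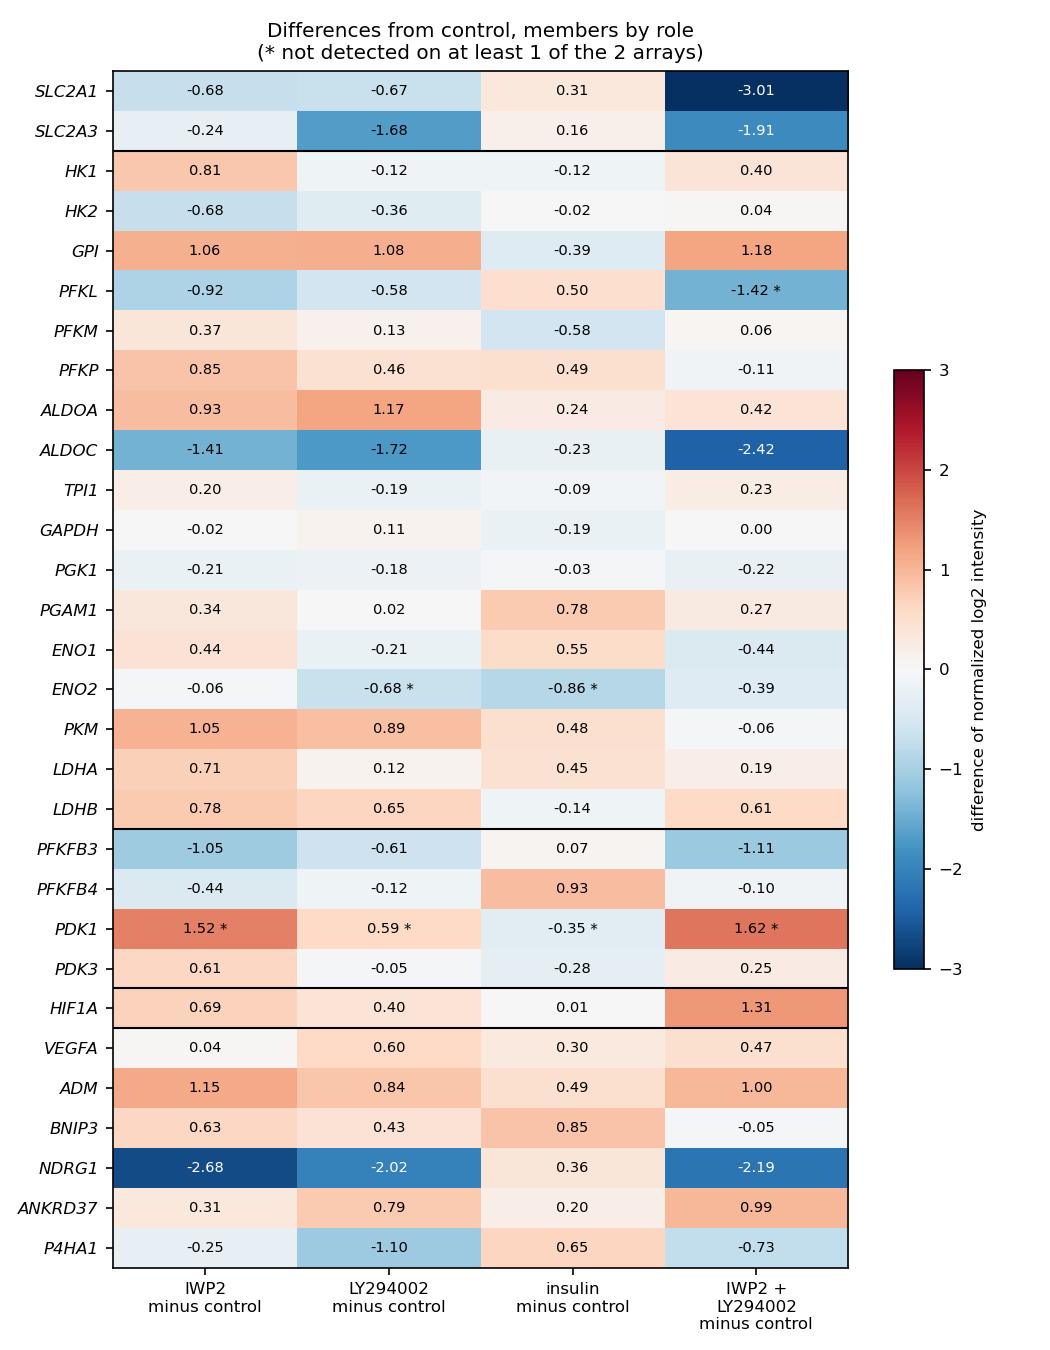
Difference of normalized log2 intensity from the control (colour and number in each cell) for the 30 detected members, in rows by role (transporters, glycolytic enzymes, flux regulators, HIF1A, hypoxia-responsive genes) and for IWP2, LY294002, insulin and the 2 inhibitors together in columns. Stars mark cells where the probe was not detected on at least 1 of the 2 arrays, and the extremes are SLC2A1 (-3.01) with both inhibitors and PDK1 (1.62) with both inhibitors.

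The transcript of HIF1A, the oxygen-regulated alpha subunit of HIF, was higher on inhibitor arrays. It read 9.02 with IWP2, 8.73 with LY294002, 8.35 with insulin and 9.64 with both inhibitors, against 8.33 in the control. By this probe the double inhibitor array was highest, 2.47-fold above the control, and the insulin array differed from it by 0.01. A dimmer HIF1A probe also read highest with both inhibitors, at 1.53 above the control, against 1.16 with IWP2. Another dimmer probe read highest with IWP2, at 1.52 above the control, against 1.23 with both inhibitors. Oxygen acts on the HIF1A protein, which these arrays do not measure.

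The hypoxia-responsive genes did not share 1 direction. NDRG1, a stress-response gene induced by hypoxia, had the largest difference from the control of any member with IWP2 and with LY294002. It read 6.0 with IWP2, 6.66 with LY294002, 9.04 with insulin and 6.49 with both inhibitors, against 8.68 in the control. The 3 inhibitor arrays were 6.39-fold, 4.05-fold and 4.56-fold below the control, and without background correction the log2 differences of NDRG1 were smaller, at -1.66 with IWP2, -1.36 with LY294002 and -1.45 with both. P4HA1, a subunit of the collagen prolyl hydroxylase of the endoplasmic reticulum, read 10.26 with IWP2, 9.41 with LY294002, 11.15 with insulin and 9.78 with both inhibitors, against 10.51 in the control. It was lowest with LY294002 (2.14-fold below the control). Fibroblast collagen gene signals were also lower on the inhibitor arrays, but lowest with both inhibitors, and a link to P4HA1 was not tested. COL1A1, for example, read 9.97 with IWP2, 9.73 with LY294002, 11.76 with insulin and 7.07 with both inhibitors, against 11.51 in the control.

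ADM, ANKRD37 and VEGFA lay on the other side. ADM, which encodes the vasodilator peptide adrenomedullin, read 8.77 with IWP2, 8.46 with LY294002, 8.11 with insulin and 8.62 with both inhibitors, against 7.62 in the control. All 4 treated arrays lay above the control, by 2.22-fold with IWP2 and 2.00-fold with both inhibitors. ANKRD37, a small ankyrin repeat protein gene induced by HIF, differed by 0.31 with IWP2, 0.79 with LY294002, 0.20 with insulin and 0.99 with both inhibitors. Its control value (5.32) lay at the dimmest detected signal of that array, which limits these differences. VEGFA, the endothelial growth factor, read 6.36, 6.92, 6.62 and 6.79 in that order, against 6.32 in the control. A dimmer VEGFA probe, detected on 4 arrays, differed by 0.52, -0.47, -0.06 and 0.19. Over the alternative settings the LY294002 difference of VEGFA ranged from 0.07 to 0.60. BNIP3, a gene of mitophagy and cell death, differed by 0.63 with IWP2, 0.43 with LY294002, 0.85 with insulin and -0.05 with both inhibitors. With the exception of ADM, none of these passed 2-fold. On the insulin array all 6 detected genes of this group lay above the control, by 0.20 (ANKRD37) to 0.85 (BNIP3), and 0 of 6 passed 2-fold. Over all genes detected on both arrays, 4315 of 8680 lay above the control and 3.58% passed 2-fold. Only BNIP3 and P4HA1 (0.65) exceeded the between-probe spread of 0.57 for insulin.

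Set beside each other, neither the glycolytic enzymes nor the hypoxia-responsive genes lay wholly on one side of the control on any inhibitor array. The median log2 difference of the enzymes was 0.37 with IWP2, 0.02 with LY294002, -0.03 with insulin and 0.04 with both inhibitors. That of the 6 hypoxia-responsive genes was 0.18, 0.52, 0.43 and 0.21 in the same order, and over all genes detected on either array it was 0.0051, -0.07, -0.0026 and -0.02. Among the 6 hypoxia-responsive genes, 1 was at least 2-fold higher and 1 lower with IWP2, 0 higher and 2 lower with LY294002, and 1 higher and 1 lower with both inhibitors. That is 33.3% on each inhibitor array, against 14.6%, 19.2% and 22.8% of all genes, and rests on 2 genes each. Over all members, 3 of 29 were at least 2-fold higher and 3 lower with IWP2 (20.7% in all, against 14.6% of all genes). With LY294002, 2 of 28 were higher and 4 lower (21.4%, against 19.2%), and with both inhibitors 3 of 28 were higher and 5 lower (28.6%, against 22.8%). With insulin 0 of 28 passed 2-fold, against 3.58%. On the inhibitor arrays the members' shares were thus near or slightly above those of the array as a whole, by fewer than 2 genes each. GPI, PKM, PFKFB3 and ADM lay close to the 2-fold limit, and each dropped under it in at least 1 of 8 alternative settings.

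**Figure D3:**
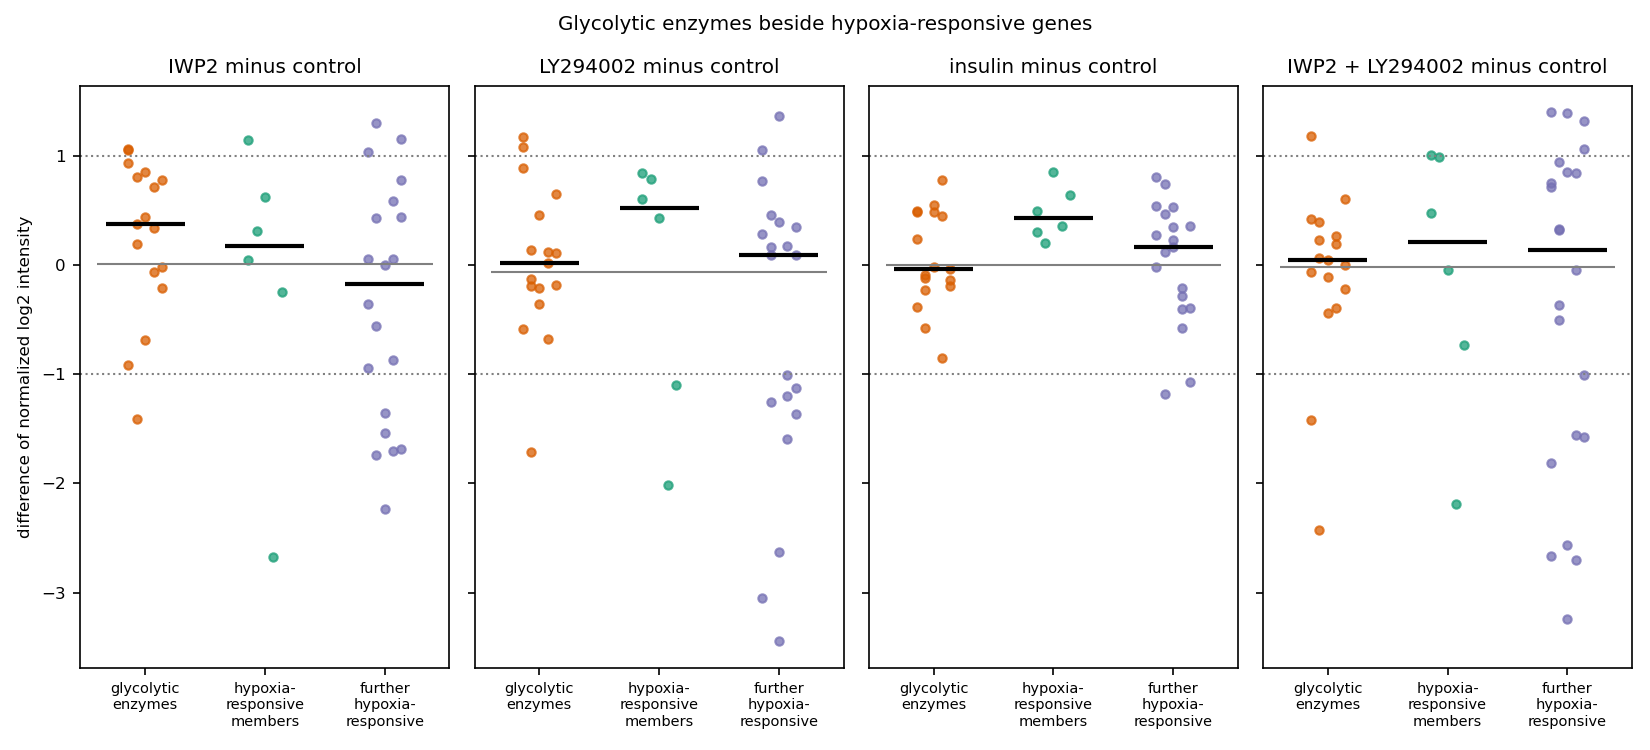
Difference of normalized log2 intensity from the control for the 17 glycolytic enzymes, the hypoxia-responsive members and 22 further hypoxia-responsive genes, 1 panel per treatment and 1 point per gene detected on at least 1 of the 2 arrays. Black bars are list medians (0.37, 0.18 and -0.18 with IWP2), the grey line is the median of all genes, and dotted lines mark 2-fold.

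A wider list of hypoxia-responsive genes also held both directions, and past 2-fold more genes were lower than higher. By sign alone, those detected on both arrays did not lean lower. With IWP2 8 lay above the control and 8 below, with LY294002 10 and 6, with insulin 11 and 8, and with both inhibitors 8 and 7. Detected on the treated array alone or the control alone were 1 and 2 with IWP2, 1 and 3 with LY294002, and 3 and 4 with both inhibitors. Among those in the control alone was BHLHE40, at least 3.75-fold, 3.22-fold and 3.28-fold lower in that order. The list medians were -0.18 with IWP2, 0.09 with LY294002, 0.17 with insulin and 0.14 with both inhibitors. With IWP2, 2 of 17 such genes with signal on both arrays passed 2-fold upwards and 4 downwards (35.3% in all, against 14.6% of all genes). With LY294002, 2 of 16 were higher and 6 lower (50%, against 19.2%), and with both inhibitors 3 of 15 were higher and 5 lower (53.3%, against 22.8%). With insulin 0 of 19 were higher and 2 lower (10.5%, against 3.58%). The shares on this list were larger than those over all genes on each treated array, and the difference was not tested. AK4, a mitochondrial adenylate kinase, read 9.50 with IWP2, 7.39 with LY294002, 10.72 with insulin and 7.78 with both inhibitors, against 10.44 in the control. P4HA2, the partner isoform of P4HA1, read 7.31, 7.46, 9.01 and 5.96 in that order, against 8.66 in the control. TMEM45A, a membrane protein gene, differed from the control by -1.71, -1.01, 0.17 and -1.81. LOX, an enzyme that crosslinks collagen, differed by -1.74 with IWP2 and 0.47 with insulin and was not detected with LY294002 or with both inhibitors. KDM3A, a histone demethylase, went the other way, at 1.15, 1.05, -0.39 and 1.40. KDM3A was named after its values were seen.

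Among the regulators of HIF, EPAS1 was at least 2-fold lower on the inhibitor arrays and VHL with LY294002. EPAS1, which encodes the alpha subunit HIF2A, read 8.01 with IWP2, 6.79 with LY294002 and 9.67 with insulin, against 9.24 in the control, and was not detected with both inhibitors. HIF1A and EPAS1 thus lay on opposite sides of the control on each inhibitor array. VHL, which marks hydroxylated HIF for destruction, differed by -0.73, -1.19, 0.03 and -0.85 with IWP2, LY294002, insulin and both inhibitors. EGLN2, a HIF prolyl hydroxylase, differed by -0.52, -0.38, -0.52 and -0.74, and HIF1AN, which hydroxylates HIF at an asparagine, by -0.71, -0.13, -0.39 and -0.45, none past 2-fold. EGLN1, the main HIF prolyl hydroxylase, stayed between -0.20 and 0.05 of the control. Of the 7 regulators, 5 were detected. At least 2-fold lower were 1 of 5 with IWP2, 2 of 5 with LY294002 and 0 of 5 with insulin. With both inhibitors it was 0 of 4, as EPAS1 has only a bound there (at least 13.8-fold lower). Over all genes detected on both arrays, 7.7%, 10.2%, 1.88% and 10.9% were lower in that order.

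ENO3 and PGAM2, muscle isoforms outside the list of members, stood above the control on the inhibitor arrays. ENO3, the muscle enolase, read 12.25 with IWP2, 12.01 with LY294002, 7.93 with insulin and 11.94 with both inhibitors, against 8.77 in the control, while ENO1 differed by no more than 0.55 on any treated array. PGAM2, the muscle phosphoglycerate mutase, was detected on the 3 inhibitor arrays, at 7.10, 7.49 and 7.67, and not with insulin or in the control. Among the 11 other isoforms with a probe, 3 were detected on any array.

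In the neighbouring pathways single genes lay past 2-fold. TKT, the transketolase of the pentose phosphate pathway, read 8.70 with IWP2, 9.35 with LY294002, 10.49 with insulin and 8.54 with both inhibitors, against 10.56 in the control. It was the 1 of 6 detected genes of that pathway past 2-fold on each inhibitor array (16.7%, near the 14.6%, 19.2% and 22.8% of all genes). PCK2, the mitochondrial enzyme of gluconeogenesis, read 6.77 with IWP2, 6.44 with LY294002 and 9.62 with insulin, against 9.45 in the control, and was not detected with both inhibitors. In glycogen metabolism, 1 of 7 genes was at least 2-fold higher with IWP2, 3 of 6 with LY294002 (and 1 lower), 1 of 7 with insulin and 3 of 7 with both inhibitors. In all that is 14.3% with IWP2, 66.7% with LY294002, 14.3% with insulin and 42.9% with both, against 14.6%, 19.2%, 3.58% and 22.8% of all genes. PYGM, the muscle glycogen phosphorylase, differed by 1.30, 1.91, -0.51 and 2.17, and PYGB, the brain form, by 0.26, 1.07, 0.80 and 1.32. PYGL, the liver form, differed by 0.56, -1.26, 1.14 and -0.16, and UGP2, which makes UDP-glucose, by 0.99, 1.20, -0.33 and 1.22.

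The pyruvate dehydrogenase complex carries pyruvate into the citric acid cycle. Of its genes and regulators, 1 of 9 was at least 2-fold higher with IWP2, 0 of 8 with LY294002 (and 1 lower), 0 of 8 with insulin and 2 of 9 with both inhibitors. In all, 11.1% passed 2-fold with IWP2, 12.5% with LY294002 and 22.2% with both, at or under the 14.6%, 19.2% and 22.8% of all genes. DLD, the shared dehydrogenase subunit, differed by 0.87, 0.52, -0.27 and 1.49, and DLAT, the acetyltransferase subunit, by 1.07, 0.17, -0.60 and 0.64. PDHX, the binding subunit, differed by 0.59, 0.25, -0.42 and 1.24. PDHA1, the catalytic alpha subunit, read 9.54 with IWP2, 7.80 with LY294002, 8.48 with insulin and 9.86 with both inhibitors, against 9.13 in the control, and was lowest with LY294002.

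On the double inhibitor array, more members were lower than higher relative to IWP2 alone. Of 29 members, 4 were at least 2-fold lower than on the IWP2 array and 0 higher (13.8% in all, against 6.4% of all genes, of which 3.45% were lower and 2.96% higher). These were SLC2A1 (-2.33), SLC2A3 (-1.68), PKM (-1.11, and -0.49 as the mean over its detected probes) and ALDOC (-1.02). Set against the LY294002 array, 1 of 28 members was lower, SLC2A1 (-2.34), and 1 higher, PDK1 (1.02), or 7.14% in all, against 10.3% of all genes (4.37% lower and 5.92% higher). SLC2A1 is the one member past 2-fold against each single inhibitor in the same direction.

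The effect of an inhibitor alone and its effect beside the other one share no array, although all 5 arrays were normalized together. Across the 27 members detected on all arrays, these effects of LY294002 had a Pearson correlation of 0.24, against 0.42 across 7110 genes, and those of IWP2 0.20, against 0.34. The difference between the effects (IWP2 with LY294002, minus IWP2, minus LY294002, plus control) was at most -1 for 5 members and at least 1 for 2, or 25.9%, against 17.9% of the 7110 genes. Negative values were found for PKM (-2.01), ALDOA (-1.68), SLC2A1 (-1.66), PFKP (-1.42) and BNIP3 (-1.11), and positive values for NDRG1 (2.50) and HK2 (1.09). For NDRG1 the single inhibitors each came near the level of the double inhibitor array. Its 2 single effects added together would fall below the dimmest detected probe of that array (5.46). The positive sign for NDRG1 was therefore fixed by the floor, and nothing is read from it. For PKM the excess over the control seen with each single inhibitor was missing with both.

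**Figure D4:**
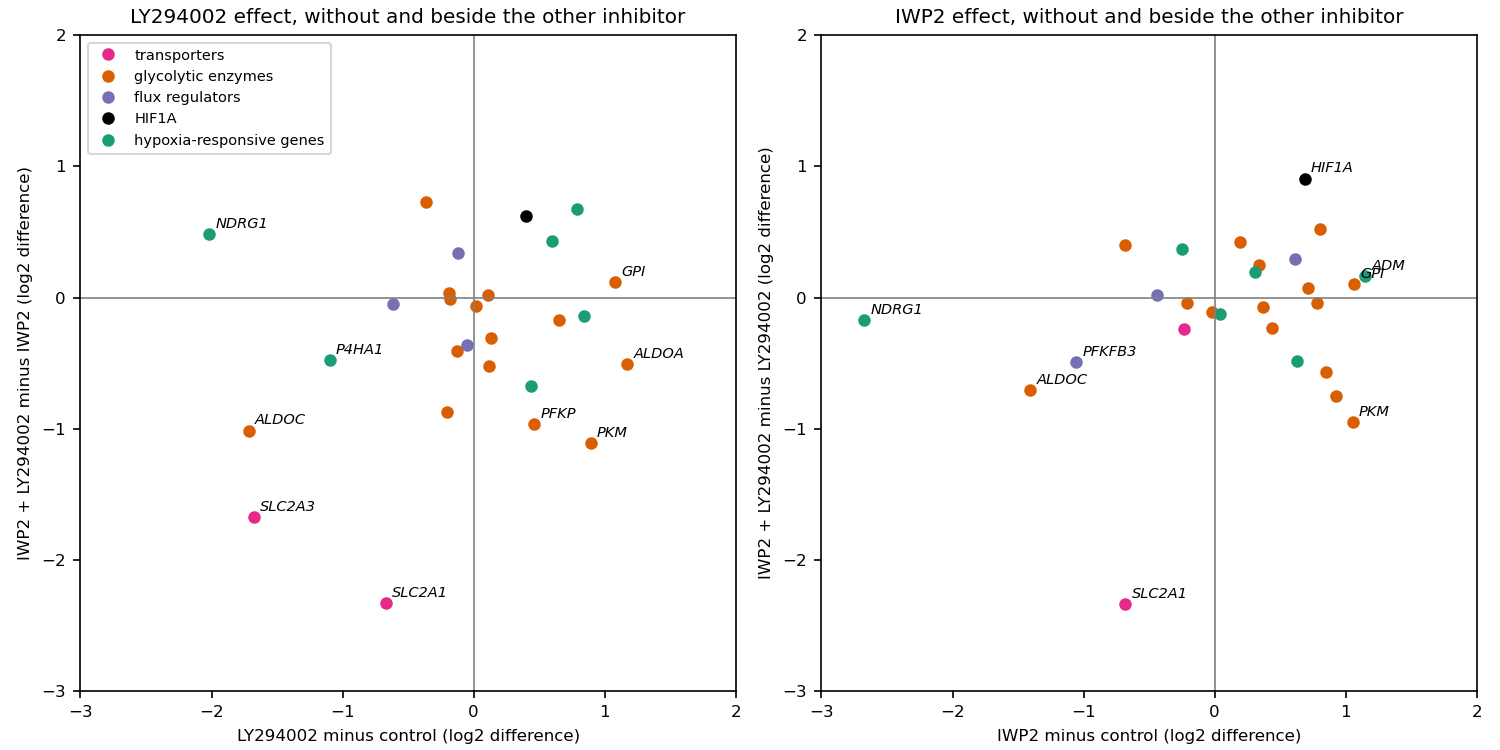
Log2 difference made by LY294002 (left) and by IWP2 (right) without the other inhibitor (horizontal axis) and beside it (vertical axis), 1 point per member detected on all 5 arrays, coloured by role. SLC2A1 lies far below 0 beside the other inhibitor in both panels (-2.33 and -2.34), NDRG1 lies far left of 0 (-2.02 and -2.68), and PKM lies right of and below 0.

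Second probes gave a check of single genes. Of the members, 9 had 11 further probes detected on all 5 arrays, and these had the sign of the used probe in 9 of 11 cases with IWP2, 9 with LY294002, 5 with insulin and 4 with both inhibitors. With both inhibitors the used GAPDH probe read the same as in the control (12.55). Its further probes (-0.12 and 0.08) could therefore not match its sign, and they count as unlike. All 3 HIF1A probes were above the control on each inhibitor array, at 0.69, 1.16 and 1.52 with IWP2, at 0.40, 1.05 and 0.60 with LY294002 and at 1.31, 1.53 and 1.23 with both inhibitors. The second ALDOA probe was higher by 2.04 with IWP2, 1.43 with LY294002 and 0.95 with both. The second PKM probe differed by 0.51 with IWP2, 0.58 with LY294002 and 0.33 with both, so that a value at the control level with both inhibitors was read by the brightest probe alone. PGK1 was read differently by its probes: the second read 1.37, 0.81, 0.59 and 0.71 above the control, where the first was at -0.21, -0.18, -0.03 and -0.22. The second HK2 probe departed with insulin (0.61 against -0.02), the second LDHA probe with both inhibitors (-0.40 against 0.19) and the second PFKFB3 probe with both inhibitors (-0.19 against -1.11). SLC2A1, SLC2A3, GPI, ALDOC, NDRG1 and ADM had no second detected probe. Several glycolytic genes, GAPDH and PGK1 among them, have near-identical processed pseudogenes, and cross-hybridization was not tested.

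**Figure D5:**
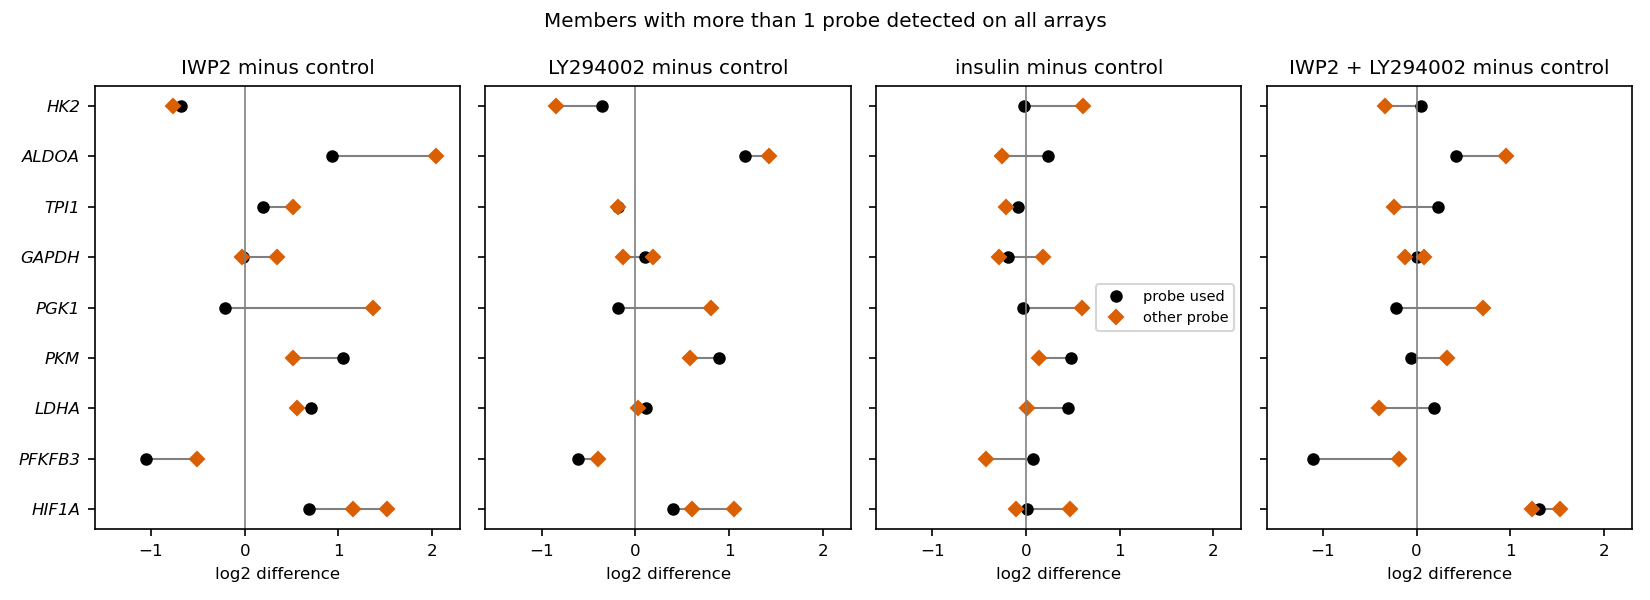
Log2 difference from the control (horizontal axis) by each probe detected on all 5 arrays, for the 9 members with more than 1 such probe, 1 panel per treatment, with the probe used as a circle and other probes as diamonds. The HIF1A probes lie together with both inhibitors (1.23 to 1.53), and the PGK1 probes lie on either side of 0 with IWP2 (-0.21 and 1.37).

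The promoters of members on either side of the control hold the same short motif. HIF binds DNA at the core motif ACGTG or GCGTG. Both were searched on both strands in RefSeq windows from 250 bases before to 50 after each gene's start (GRCh38.p14), which were given for 28 of the 31 members. At least 1 window held ACGTG or GCGTG in 26 of the 28 members (92.9%), against 52.4% of all 27305 genes with a window. A gene can have several windows, and counted by window the share was 66.7% of 51, against 48.4% of 35116. For ACGTG alone it was 41.2% of windows, against 21.4%, and for GCGTG alone 41.2%, against 36.5%. ACGTG also lies within CACGTG, a motif of other transcription factors. The motif was found in 16 of 17 enzymes and in 4 of 5 hypoxia-responsive genes. ALDOC and P4HA1, which lay at least 2-fold below the control with LY294002, and GPI and ADM, which lay at least 2-fold above it with IWP2, are shown with the 250 bases before their start, written 5′ to 3′ on the gene's strand, with each motif on either strand in capitals. They lie at chr17:28576896-28577145 (minus strand, ALDOC), chr10:73096867-73097116 (minus strand, P4HA1), chr19:34364742-34364991 (plus strand, GPI) and chr11:10304823-10305072 (plus strand, ADM).
ALDOC: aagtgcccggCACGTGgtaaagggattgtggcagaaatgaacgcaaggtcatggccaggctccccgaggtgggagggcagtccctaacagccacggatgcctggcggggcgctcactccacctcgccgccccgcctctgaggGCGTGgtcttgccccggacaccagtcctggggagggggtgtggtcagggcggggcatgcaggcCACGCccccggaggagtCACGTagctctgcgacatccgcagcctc
P4HA1: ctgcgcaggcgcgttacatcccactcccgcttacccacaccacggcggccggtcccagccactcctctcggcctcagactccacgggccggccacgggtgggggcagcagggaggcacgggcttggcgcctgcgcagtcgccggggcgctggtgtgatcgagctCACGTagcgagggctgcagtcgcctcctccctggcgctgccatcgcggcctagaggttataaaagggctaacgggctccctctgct
GPI: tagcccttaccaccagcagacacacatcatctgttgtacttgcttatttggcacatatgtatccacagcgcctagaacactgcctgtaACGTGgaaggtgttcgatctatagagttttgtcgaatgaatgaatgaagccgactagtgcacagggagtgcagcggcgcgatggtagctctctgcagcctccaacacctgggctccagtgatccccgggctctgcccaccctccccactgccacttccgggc
ADM: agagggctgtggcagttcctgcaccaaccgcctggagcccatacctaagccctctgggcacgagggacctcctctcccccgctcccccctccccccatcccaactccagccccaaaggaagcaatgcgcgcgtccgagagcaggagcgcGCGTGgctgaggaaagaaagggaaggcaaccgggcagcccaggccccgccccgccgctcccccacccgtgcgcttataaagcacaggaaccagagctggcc
ALDOC holds 5 motif matches, of which the pair farthest from the start overlap in CACGTG, and P4HA1, GPI and ADM hold 1 each. A match describes these letters and is not a measured binding site.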

How the data were processed

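RNA of 5 H1 cultures was labelled with biotin and hybridised to Illumina expression BeadChips, per the labels' protocols, and each array was taken to its group by its treatment label. Per the file headers, the deposited table holds an intensity for each of 47299 probes and a detection p-value, in steps of 1 in 770 by its values. The intensities were not normalized and kept their background (lowest values 81.3 to 85.9). A second deposited table holds log2 values of the authors, with processing not stated in the labels or headers, and served as an alternative.

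Intensities were background-corrected and quantile-normalized with neqc of limma 3.58.1 (R 4.3.3, offset 16), and compared in Python 3.11.15 with pandas 2.3.3. Of the probes, 30106 had 1 gene symbol in the platform annotation, 8 had several and 17185 none. A gene was read by the probe with the highest mean. Detection needed a p-value under 0.01, and "2-fold" counts used genes detected on both arrays. A gene detected on 1 of 2 arrays has a bound, set against its own value on the dim array or that array's dimmest detected probe, whichever was brighter. List medians used members detected on at least 1 of the 2 arrays. Summed marker intensities include the offset. The number of arrays limits the precision. The code was tested on simulated arrays.

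The members and lists were chosen with earlier results of these data known. Named in full were members past 2-fold against the control, with SLC2A1, SLC2A3, HK1, HK2, LDHA, LDHB, PDK1, VEGFA and HIF1A, and outside the members up to 4 genes per pathway list past 2-fold, with ENO3 and PGAM2. The alternatives were no background correction, 75th percentile scaling, cyclic loess, an offset of 50, the authors' values, a detection limit of 0.05, no detection filter and the mean over detected probes.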

Additional observations from a re-analysis of the deposited data

Results flagged for a closer look

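PKM and ALDOA were singled out because an inhibitor's effect had opposite signs without and beside the other inhibitor, each by at least 0.58 in log2. For PKM, the LY294002 effect was -1.11 beside IWP2 and 0.89 without it, and the IWP2 effect was -0.95 beside LY294002 and 1.05 without it. The second PKM probe gave -0.18 beside IWP2 and -0.26 beside LY294002, short of 0.58, so the PKM result rests on the brightest probe. For the IWP2 effect, the second ALDOA probe gave -0.47 beside LY294002, short of 0.58 as well. Its LY294002 effect did pass 0.58 with opposite signs, at -1.09 beside IWP2 and 1.43 without it. By the brightest ALDOA probe the LY294002 effect was -0.51 beside IWP2 and 1.17 without it. For ALDOA's brightest probe, the IWP2 effect was -0.75 beside LY294002 and 0.93 without it. With 1 array per condition these differences between effects were not tested. The 3 flagged contrasts draw on the same 4 arrays.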

How the results depend on the processing

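No paired analysis was possible because each group has 1 array. Of 48 recounts of members past 2-fold, 43 stayed within 1.5 times the reported count. Without background correction the counts were 2 (0 higher and 2 lower, in place of 3 and 3) for IWP2 against control, 5 (1 higher and 4 lower, in place of 3 and 5) for both inhibitors against control and 1 (in place of 2) for both against LY294002, and the last was also 1 with an offset of 50 and with the authors' deposited values. Background left in, or a larger offset, shrinks differences by construction. The cause was not tested for the authors' values. Of 96 recomputed list medians, 94 moved by less than the between-probe spread divided by the square root of the list size. The exceptions were the enzymes' medians for both inhibitors against IWP2 without background correction (-0.18, in place of -0.33) and against LY294002 under 75th percentile scaling (-0.21, in place of -0.04). The cause of the second was not tested. The changed detection limit and the absent detection filter cannot alter a single-gene value, as the probe was chosen without regard to detection. For genes with 1 probe, among them SLC2A1, SLC2A3, ALDOC, NDRG1, GPI and ADM, the mean over detected probes cannot either. With these settings counted, SLC2A1, SLC2A3, ALDOC, NDRG1 and HIF1A stayed past 2-fold with both inhibitors in all 8 alternatives. Of 816 single-gene values, including those that could not change, 9 moved by more than the between-probe spread. Of these, 8 were without background correction (SLC2A1, NDRG1 and PDK1) and 1 was a mean over probes (PKM). GPI with IWP2 and PKM with IWP2 stayed past 2-fold in 5 of 8, and ADM with both inhibitors in 3 of 8, all keeping their sign. The 3 for ADM are the settings that could not change its value. In the others ADM fell under 2-fold, from 0.75 without background correction to 0.96 with the authors' deposited values. The counts for GPI and PKM also include settings that could not change their values. PDK1, ENO2, ANKRD37 and, with both inhibitors, PFKL lay near the detection limit, where signal over background limits the precision.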
